A study of Mus musculus with 18 samples.

Results

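Insulin receptor signalling and the FOXO transcription factors under its control were followed through 10 genes in cultured mouse microglia, the macrophages of the brain. The genes were chosen by symbol, with earlier results of these data known. They are the receptor gene Insr and its adaptor Irs2, the factors Foxo1, Foxo3 and Foxo4, and 5 genes that FOXO factors are known to bind or regulate in other tissues, Fbxo32, Sesn1, Sesn3, Bcl6 and Cited2. These 10 of the 54532 genes in the count table all passed the filter on low counts, which left 13267 genes for testing.

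RNA was sequenced from 18 libraries of primary microglia, in 6 groups of 3. The cells came from pups of postnatal day 0 to 3 and were isolated after 10 days of mixed culture. Cells of the genotype mTrem2 +/+ (written Trem2+/+) were compared without and with 0N4R tau fibrils at 1 ug/ml. Cells of the genotype hTrem2 R47H/+ (written R47H/+), which carry the R47H form of the human lipid receptor TREM2 on 1 allele, were studied without tau, with tau, with the Akt inhibitor MK2206, and with MK2206 followed by tau. Pre-treatment lasted 6 h, with 1 uM MK2206 or with 0.01% DMSO as the control. There was no Trem2+/+ group with MK2206, so the effect of the inhibitor was measured in R47H/+ cells only. The labels do not say whether the 3 libraries of a group came from separate cultures or animals, so p-values measure the spread between these libraries, which may be technical. In bulk RNA, fewer cells of a type and less RNA per cell cannot be told apart.

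When insulin or insulin-like growth factors bind their receptors, IRS adaptors recruit the lipid kinase PI3K, whose product brings the kinase Akt to the membrane. Akt phosphorylates FOXO factors, which are then bound by 14-3-3 proteins and held in the cytoplasm. When Akt is inactive, FOXO factors enter the nucleus and act on genes of growth arrest, protein breakdown, stress defence and insulin sensitivity, among them Insr and Irs2, so that the pathway regulates its own upper part. FOXO activity is set largely by the location of the protein, which mRNA counts do not measure.

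The libraries held 16288531 to 20686299 counts. Replicate 3 of Trem2+/+ and replicate 2 of R47H/+ with tau held relatively few counts of long genes. Their log2 CPM (CPM being counts relative to the library's total) changed by -1.39 and -0.73 for each 10-fold increase in gene length, against the mean of the group's other libraries. Libraries of the other 4 groups lay between -0.17 and 0.14, and those of the same groups, set against a mean that holds a shifted library, between 0.31 and 0.79. Results are therefore given with all 18 libraries and with the 16 left when both length-shifted ones were taken out, called the 16-library fit. Without tau, mouse Trem2 lay at 451.2 to 489.1 CPM in R47H/+ libraries and at 935.0 to 1894 CPM in those of Trem2+/+. The summed level of 12 microglial markers was 4437 to 5692 CPM, with Csf1r at 1912 to 2692 CPM in the group means, but the defining markers Tmem119 and Siglech lay at or below 2.53 and 0.223 CPM in every library. Summed markers lay at 54.1 to 106.9 CPM for astrocytes, 85.7 to 193.9 CPM for the oligodendrocyte lineage, and 1.55 to 4.45 CPM for neurons. The fibroblast and vessel list lay at 5.33 to 103.3 CPM and the list of border macrophages, monocytes and granulocytes at 393.6 to 561.3 CPM, with Cldn5, Ly6g and S100a9 at 0 in every library.

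The 10 genes span a wide range of levels. Per kilobase of the authors' gene length (RPKM) and averaged over all libraries, Cited2 was highest at 82.4, followed by Sesn1 at 24.1, Bcl6 at 15.5, Foxo3 at 10.6 and Foxo4 at 7.52. Irs2 and Insr lay at 3.95 and 3.56 RPKM, Fbxo32 at 2.25 and Foxo1 at 1.33. Sesn3 was lowest at 0.178 RPKM, on 16 to 82 counts per library, so its values are the least precise. All other members had at least 59 counts in every library. Among the FOXO factors Foxo3 was the highest and Foxo1 the lowest per length.

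Upstream sequences are shown for Irs2, which had the largest tau response of the members, and for Cited2, which moved in the opposite direction. Promoter entries of RefSeq (GRCm38.p6) matched 7 of the 10 members, with 9 promoters in all, and Foxo4, Insr and Fbxo32 had none. The 250 bases before each start were searched on both strands for the FOXO core motif GTAAACA (reverse complement TGTTTAC) and the insulin response motif CAAAACA (reverse complement TGTTTTG). Both end in AAACA, and a site can match one of them only. The first was found in 0 of the 9 and the second in 1, that of Irs2, against 3.17% and 5.56% of 32851 promoters. Below, the match is in capitals, 37 to 31 bases before the RefSeq start of Irs2. The Irs2 sequence is the minus strand of chr8:11008930-11009179, and the Cited2 sequence, which holds neither motif, is the plus strand of chr10:17722978-17723227.
Irs2: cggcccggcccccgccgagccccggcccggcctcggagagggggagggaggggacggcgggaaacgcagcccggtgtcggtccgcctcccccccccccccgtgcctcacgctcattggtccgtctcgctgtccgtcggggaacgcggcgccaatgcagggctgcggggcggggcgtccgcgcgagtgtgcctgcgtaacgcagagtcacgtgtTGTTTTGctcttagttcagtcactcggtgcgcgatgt
Cited2: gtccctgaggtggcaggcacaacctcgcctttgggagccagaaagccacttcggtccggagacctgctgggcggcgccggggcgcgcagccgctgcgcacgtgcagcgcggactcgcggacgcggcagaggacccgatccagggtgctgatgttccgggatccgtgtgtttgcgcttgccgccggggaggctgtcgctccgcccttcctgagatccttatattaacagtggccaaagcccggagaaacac
A match describes letters in this window only. The RefSeq start of Irs2 lies 471 bp upstream of the start of the authors' gene on that strand.

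**Figure D1:**
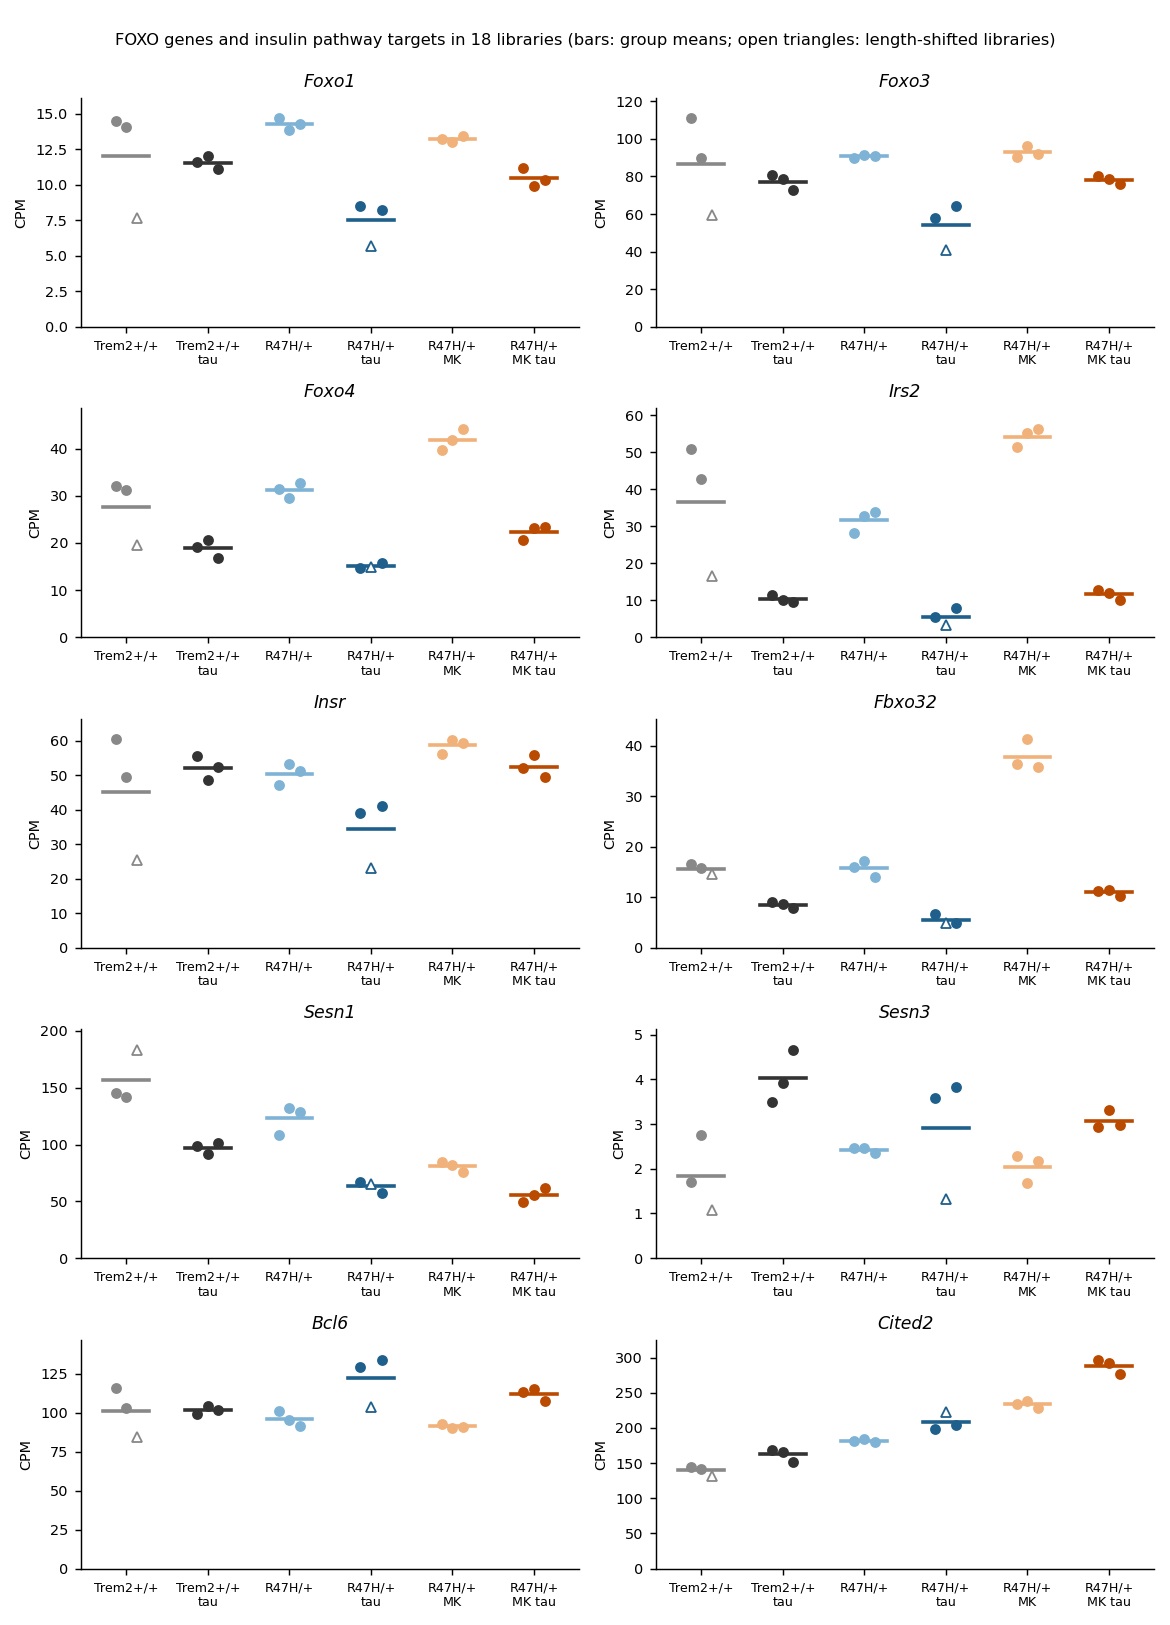
Normalised counts (CPM, linear axis from 0) of the 10 genes in the 18 libraries, by group; bars are means of 3 libraries and open triangles mark the length-shifted libraries. Irs2, Foxo4 and Fbxo32 are low in every group with tau and highest with MK2206, while the 6 groups of Cited2 do not overlap.

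In R47H/+ cells without tau, MK2206 was accompanied by higher mRNA of the ubiquitin ligase gene Fbxo32 and of the transcriptional co-regulator gene Cited2, and by lower Sesn1. These 3 of the 10 members were called (adjusted p below 0.05 over all genes tested, edgeR's quasi-likelihood test), 2 higher and 1 lower, against 1.19% and 1.36% of all genes tested. The 16-library fit leaves out no library of these groups, and it called 4 higher and 1 lower, against 6.82% and 7.1%. The additional calls were Irs2 and Foxo4. The median log2 change of the members was 0.13, against -0.01 over all genes.

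Fbxo32 (ENSMUSG00000022358, chromosome 15, 58175879 to 58214932, minus strand, GRCm38) encodes atrogin-1, which marks proteins for breakdown in wasting muscle. It measured 16.05, 17.2 and 13.96 CPM in R47H/+ libraries and 36.3, 41.2 and 35.8 CPM with MK2206. Every inhibitor library thus exceeded every control library by a wide margin. Fbxo32 rose 2.40-fold, a log2 change of 1.26 (SE 0.130, adjusted p = 4.81e-05), and by 1.27 in the 16-library fit. With tau present it measured 6.69, 4.88 and 4.86 CPM without and 11.2, 11.4 and 10.3 CPM with the inhibitor. The groups were again apart, at a lower level, and the rise was 2.01-fold, a log2 change of 1.00 (SE 0.138, adjusted p = 0.000603). In the 16-library fit it was 0.93 (adjusted p = 0.000117). The interaction of MK2206 with tau for Fbxo32 was -0.26 (SE 0.188, adjusted p = 0.849).

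Irs2 (ENSMUSG00000038894, chromosome 8, 10984681 to 11008458, minus strand) encodes an adaptor that links the insulin receptor to PI3K. Its level was 28.03, 32.7 and 33.95 CPM in R47H/+ and 51.3, 55.1 and 56.3 CPM with MK2206. The libraries did not overlap, and the difference was 1.72-fold, a log2 change of 0.78 (SE 0.301). The shared fit of all 18 libraries did not call it (adjusted p = 0.275). Its widest group was Trem2+/+ without tau, at 50.8, 42.7 and 16.5 CPM, of which the last is a length-shifted library. The 16-library fit called Irs2 higher, by 0.79 (SE 0.102, adjusted p = 1.03e-05). With tau it lay at 5.54, 3.39 and 7.77 CPM without and 12.6, 12.02 and 10.03 CPM with MK2206, a log2 change of 1.05 (adjusted p = 0.106). It was called in the 16-library fit, at 0.80 (SE 0.156, adjusted p = 0.00142).

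Insr, the receptor gene (ENSMUSG00000005534, chromosome 8, 3122061 to 3279617, minus strand), had a smaller difference. It measured 47.1, 53.3 and 51.1 CPM in R47H/+ and 56.3, 60.3 and 59.4 CPM with MK2206, a log2 change of 0.22 (SE 0.238, adjusted p = 0.933). The libraries were apart but close, and in the 16-library fit the value of 0.22 was still not called (adjusted p = 0.0653). A fit of the 6 libraries alone called Insr higher, at 0.22 (adjusted p = 0.0273). With tau, Insr was at 39.1, 23.2 and 41.1 CPM, and at 52.1, 55.9 and 49.4 CPM with the inhibitor. The log2 change of 0.61 was not called with all libraries (adjusted p = 0.229) and was 0.39 in the 16-library fit (adjusted p = 0.00682).

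The 3 FOXO genes did not move alike. Foxo4 (ENSMUSG00000042903, chromosome X, 101254528 to 101260873, plus strand) lay at 31.4, 29.5 and 32.7 CPM in R47H/+ and at 39.8, 41.9 and 44.2 CPM with MK2206. The groups were apart, with a log2 change of 0.43 (SE 0.148, adjusted p = 0.195), called in the 16-library fit at 0.43 (SE 0.0798, adjusted p = 0.000575). With tau Foxo4 lay at 14.7, 14.9 and 15.7 CPM, and with tau and MK2206 at 20.7, 23.2 and 23.3 CPM. This difference of 0.57 missed the threshold (adjusted p = 0.0552) and was called in the 16-library fit at 0.56 (adjusted p = 0.000658). Foxo1 (ENSMUSG00000044167, chromosome 3, 52268336 to 52353221, plus strand) measured 14.7, 13.9 and 14.2 CPM in R47H/+ and 13.2, 13.02 and 13.4 CPM with MK2206, a log2 change of -0.11 (SE 0.191, adjusted p = 0.994). Foxo3 (ENSMUSG00000048756, chromosome 10, 42181841 to 42276755, minus strand) measured 90.0, 91.3 and 90.8 CPM, and 90.4, 96.4 and 91.9 CPM with MK2206. Its groups overlapped, with a log2 change of 0.03 (SE 0.180, adjusted p = 0.997). With tau present the differences for Foxo1 and Foxo3 were 0.49 (adjusted p = 0.239) and 0.53 (adjusted p = 0.152). They were 0.33 (adjusted p = 0.0566) and 0.36 (adjusted p = 0.00553) in the 16-library fit, which called Foxo3.

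Sesn1 (ENSMUSG00000038332, chromosome 10, 41809935 to 41908424, plus strand) encodes a sestrin, a stress-induced inhibitor of mTORC1 signalling. It measured 108.7, 132.1 and 129.0 CPM in R47H/+ and 84.9, 81.9 and 75.8 CPM with MK2206. All inhibitor libraries were below all controls, and Sesn1 fell by 0.61 on the log2 scale (SE 0.123, adjusted p = 0.013). Leaving out 1 library ended this call in 4 cases, without R47H/+ replicate 2 or 3 or MK2206 replicate 2 or 3 (adjusted p = 0.0802, 0.0663, 0.0635 and 0.0778). With 16 libraries it fell by 0.60 (adjusted p = 3.14e-05). With tau the libraries overlapped, at 66.6, 65.1 and 57.8 CPM without and 49.1, 55.5 and 61.6 CPM with MK2206, a log2 change of -0.19 (adjusted p = 0.503). Sesn3 (ENSMUSG00000032009, chromosome 9, 14275067 to 14333101, plus strand), another sestrin gene, was at 2.47, 2.46 and 2.35 CPM against 2.28, 1.67 and 2.18 CPM with MK2206, and was not called (log2 change -0.24, SE 0.341, adjusted p = 0.971).

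Cited2 (ENSMUSG00000039910, chromosome 10, 17723218 to 17725674, plus strand) encodes a protein that binds the co-activators CBP and p300 and restrains the hypoxia factor HIF-1. It measured 182.0, 184.5 and 179.4 CPM in R47H/+ and 233.4, 238.9 and 228.5 CPM with MK2206. Cited2 rose by 0.36 (SE 0.0836, adjusted p = 0.0292), and by 0.37 in the 16-library fit (adjusted p = 9.95e-05). The call ended with no count filter (adjusted p = 0.419), with an offset for gene length (0.251) and on leaving out any of the 6 libraries (0.0838 to 0.145). With tau it measured 199.1, 222.8 and 204.8 CPM without and 295.9, 291.8 and 276.3 CPM with MK2206, and rose by 0.46 (SE 0.0836, adjusted p = 0.00618). That call ended with no count filter (adjusted p = 0.118), in a fit of the 6 libraries alone (0.0589) and with the length offset (0.0595). Bcl6 (ENSMUSG00000022508, chromosome 16, 23965052 to 23988852, minus strand), a transcriptional repressor that restrains inflammatory genes in macrophages, overlapped between groups, at 101.2, 95.2 and 91.4 CPM against 93.0, 90.1 and 91.0 CPM with MK2206 (log2 change -0.07, SE 0.117, adjusted p = 0.99).

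With tau present, MK2206 gave 2 members called higher, Fbxo32 and Cited2, and 0 lower, against 1.64% and 1.4% of all genes. The 16-library fit had 6 higher and 1, Bcl6, lower, against 6.28% and 5.73%. Sesn3 was called in neither fit (0.08 and -0.27). The median of the members was 0.51, and 0.38 in the 16-library fit, against -0.01 and 0.00 over all genes. The microglial marker list moved with the inhibitor. Without tau 4 of its 11 tested genes were called lower and 0 higher, against 1.36% and 1.19% of all genes. Its summed level was then 4437 to 4655 CPM against 5253 to 5316 CPM. With tau 0 of the 11 were called, against 1.4% lower and 1.64% higher of all genes. The part of this in the members' changes was not tested.

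**Figure D2:**
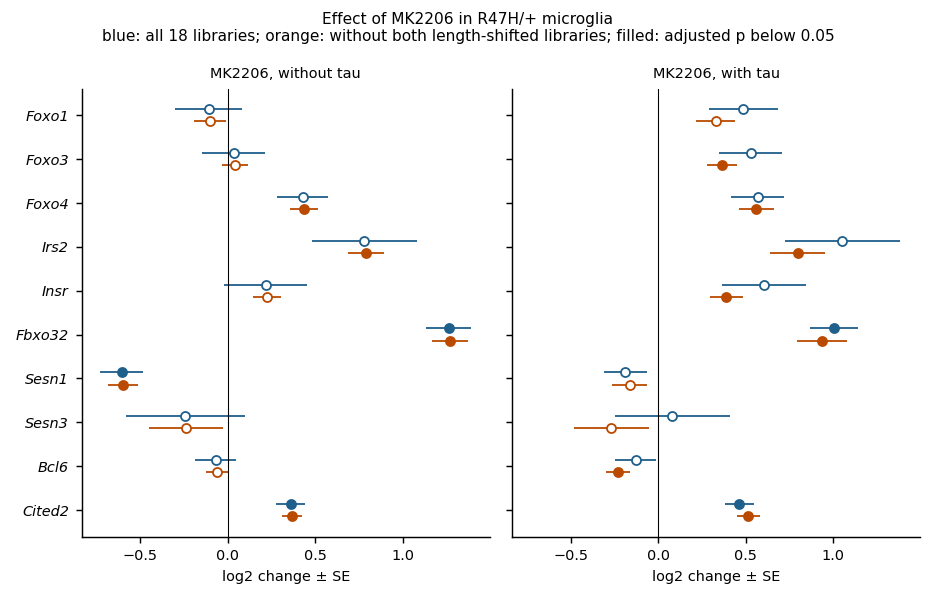
Log2 change with MK2206 (point) and its SE (line) in R47H/+ cells without tau (left) and with tau (right), for each member, with all 18 libraries in blue and without both length-shifted libraries in orange; filled points have an adjusted p below 0.05. With all libraries Fbxo32 is highest without tau, at 1.26, Irs2 and Fbxo32 are highest with tau, at 1.05 and 1.00, and Sesn1 is the lowest in both panels.

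Tau fibrils were accompanied by lower Irs2, Foxo4, Fbxo32 and Sesn1 in every setting studied. In Trem2+/+ cells 1 member rose and 4 fell, against 14.4% and 12.1% of all genes. In R47H/+ cells 1 rose and 6 fell, against 15.0% and 12.6%. In R47H/+ cells with MK2206 1 rose and 4 fell, against 14.3% and 11.3%. In the 16-library fit the counts were 2 higher and 6 lower in Trem2+/+ (21.6% and 19.8% of all genes) and 2 higher and 7 lower in R47H/+ (21.6% and 21.1%). With MK2206 they were then 3 higher and 6 lower (22.7% and 25.3%). The medians of the members were -0.12, -0.84 and -0.29 with all libraries, against -0.04, -0.00 and -0.03 over all genes.

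Irs2 had the largest change with tau of the 10 members in all 3 settings. It fell from 50.8, 42.7 and 16.5 to 11.4, 9.92 and 9.37 CPM in Trem2+/+ cells, 3.58-fold (log2 change -1.84, SE 0.315, adjusted p = 0.000328), and by 2.20 in the 16-library fit. In R47H/+ cells it fell 5.67-fold, a log2 change of -2.50 (SE 0.330, adjusted p = 2.65e-05), and by 2.25 with 16 libraries. With MK2206 it fell 4.69-fold, a log2 change of -2.23 (SE 0.318, adjusted p = 5.16e-05). In all 3 settings every tau library was below every library without tau. Levels with tau and MK2206 overlapped those of Trem2+/+ with tau, and both were above those of R47H/+ with tau. Insr was not called with all libraries in any of the settings. Its log2 changes were 0.21 (adjusted p = 0.548), -0.55 (0.103) and -0.16 (0.699). With the length offset it was called in the first 2, higher at 0.30 (adjusted p = 0.0188) and lower at -0.60 (adjusted p = 0.000102). The 16-library fit called it lower in R47H/+ cells, by 0.34 (adjusted p = 0.00424), while the values of -0.08 and -0.18 in the other settings were not called, so that the sign in Trem2+/+ cells depended on the length-shifted library.

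Foxo4 fell with tau by 0.55 in Trem2+/+ (SE 0.150, adjusted p = 0.0121), by 1.05 in R47H/+ (SE 0.151, adjusted p = 6.65e-05) and by 0.91 with MK2206 (SE 0.149, adjusted p = 0.000221). In Trem2+/+ libraries it went from 32.1, 31.2 and 19.6 to 19.2, 20.6 and 16.9 CPM, where the length-shifted library at 19.6 made the groups overlap. That call ended in a fit of the 6 libraries alone (adjusted p = 0.19) and without replicate 3 of Trem2+/+ with tau (0.0611). With 16 libraries Foxo4 fell by 0.76 there. Foxo1 and Foxo3 fell in R47H/+ cells by 0.93 (SE 0.197, adjusted p = 0.00197) and 0.74 (SE 0.181, adjusted p = 0.00568). Foxo1 reached 8.52, 5.68 and 8.23 CPM and Foxo3 57.6, 40.8 and 64.3 CPM there, the lowest group mean of both genes. The lowest library of each was the length-shifted one, and without both such libraries the falls were 0.78 and 0.59. In Trem2+/+ cells Foxo1 was at -0.06 (adjusted p = 0.834) and Foxo3 at -0.17 (adjusted p = 0.519). Both were called in the 16-library fit, at -0.31 and -0.39 (adjusted p = 0.0151 and 0.000422). With MK2206 the shared fit of all 18 libraries called neither gene, at -0.33 and -0.25 (adjusted p = 0.244 and 0.37). The 16-library fit called both, at -0.35 and -0.26 (adjusted p = 0.00366 and 0.00467). Both were also called lower when the compared MK2206 groups were fitted by themselves, at -0.32 and -0.23 (adjusted p = 0.0229 and 0.00717). The length offset gave calls too, at -0.33 and -0.25 (adjusted p = 0.0126 and 0.0424).

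Fbxo32 fell with tau 1.84-fold in Trem2+/+, 2.87-fold in R47H/+ and 3.44-fold in R47H/+ with MK2206. The libraries of Trem2+/+ cells went from 16.5, 15.8 and 14.7 to 8.94, 8.70 and 7.90 CPM, with no overlap. The log2 changes were -0.88, -1.52 and -1.78 (SE 0.133, 0.137 and 0.133, and adjusted p = 0.000101, 4.72e-07 and 4.85e-08). Sesn1 fell by 0.69, 0.96 and 0.55 in the same order (adjusted p = 0.000459, 2.02e-05 and 0.00326). In Trem2+/+ it went from 145.7, 142.0 and 183.2 to 98.5, 91.5 and 101.5 CPM, again without overlap.

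Sesn3, Bcl6 and Cited2 had positive changes with tau where they were called. Sesn3 rose 2.13-fold in Trem2+/+ cells, from 1.72, 2.75 and 1.08 to 3.49, 3.92 and 4.66 CPM (log2 change 1.09, SE 0.332, adjusted p = 0.0233). That call ended in a fit of the 6 libraries alone (adjusted p = 0.12) and without Trem2+/+ replicate 1 or 3 or Trem2+/+ with tau replicate 2 or 3 (0.0546, 0.0605, 0.0523 and 0.0813). In the R47H/+ settings Sesn3 was at 0.26 and 0.59 (adjusted p = 0.602 and 0.239). It was called in all 3 in the 16-library fit, at 0.82, 0.60 and 0.57 (adjusted p = 0.00416, 0.0311 and 0.0266). Bcl6 rose in R47H/+ cells to 129.3, 103.7 and 133.4 CPM (log2 change 0.35, SE 0.117, adjusted p = 0.0364). That call ended with no count filter (adjusted p = 0.216), in a fit of the 6 libraries alone (0.0686), without any R47H/+ replicate (0.0553 to 0.126), and without R47H/+ with tau replicate 1 or 3 (0.107 and 0.123). With 16 libraries Bcl6 rose by 0.44 (adjusted p = 1.67e-05), and in Trem2+/+ cells it was not called either way (0.01 and -0.12). Cited2 rose with tau in R47H/+ cells with MK2206 by 0.30 (SE 0.0835, adjusted p = 0.0127). That call ended with no count filter (adjusted p = 0.301) and with the length offset (0.141). Its values of 0.22 in Trem2+/+ and 0.20 in R47H/+ were not called by edgeR (adjusted p = 0.0646 and 0.0918) but were by DESeq2 (0.0115 and 0.0102), and in the 16-library fit that in Trem2+/+ was, at 0.17 (adjusted p = 0.0405).

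Cell type marker lists moved with tau too. Over all genes 14.4% were higher and 12.1% lower in Trem2+/+ cells, 15.0% and 12.6% in R47H/+ cells, and 14.3% and 11.3% with MK2206. Of the 11 tested microglial markers 4 were higher and 3 lower in Trem2+/+ cells, 4 and 5 in R47H/+ cells and 5 and 2 with MK2206. Their summed level in R47H/+ cells was 5113 to 5230 CPM with tau against 5253 to 5316 CPM without, and with MK2206 5547 to 5692 against 4437 to 4655 CPM. Of the 4 tested genes of border macrophages, monocytes and granulocytes 2, 2 and 3 were higher and 1, 2 and 1 lower, and in R47H/+ cells the sum of that list was 393.6 to 401.8 against 472.6 to 523.2 CPM. Of the 9 oligodendrocyte lineage markers 4, 5 and 3 were called lower and 1 higher in each setting, and in R47H/+ cells their sum was 85.7 to 104.1 CPM with tau against 135.9 to 148.3 CPM without. In the same cells the fibroblast and vessel sum, mostly the receptor gene Kdr, was 56.3 to 93.6 against 25.5 to 33.4 CPM, with Cldn5 at 0. Of the 6 tested astrocyte markers 1, 2 and 3 were higher and 1, 1 and 2 lower in the 3 settings. The astrocyte sum in R47H/+ cells was 79.3 to 102.8 CPM with tau against 66.2 to 69.7 CPM without. With MK2206 it was 94.4 to 106.9 against 54.1 to 70.7 CPM. Whether these cells add to the members' changes was not tested.

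**Figure D3:**
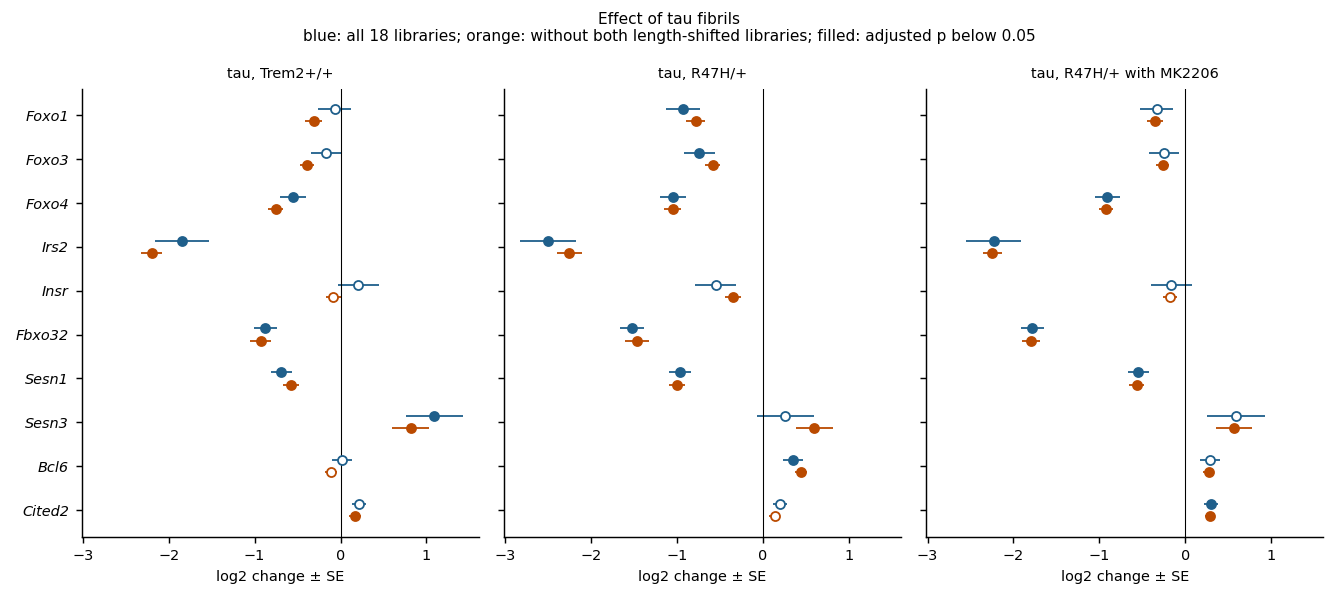
Log2 change with tau fibrils (point) and its SE (line) for the 10 members in Trem2+/+ cells, R47H/+ cells and R47H/+ cells with MK2206, with all 18 libraries in blue and without both length-shifted libraries in orange; filled points have an adjusted p below 0.05. Irs2 is the lowest in each panel, at -1.84, -2.50 and -2.23 with all libraries.

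Between genotypes without tau, the member called with all libraries was Cited2. Its R47H/+ libraries, at 182.0, 184.5 and 179.4 CPM, were all above the Trem2+/+ libraries, at 145.0, 141.6 and 132.4 CPM, a 1.30-fold difference (log2 change 0.38, SE 0.0837, adjusted p = 0.00497). With 16 libraries it rose by 0.34 (adjusted p = 0.000281). The call ended with no count filter (adjusted p = 0.0810), in a fit of the 6 libraries alone (0.168) and with the length offset (0.110). This made 1 member higher and 0 lower, against 8.22% and 6.83% of all genes. The 16-library fit had 1 higher and 2 lower, against 15.8% and 13.1%, the latter being Irs2 and Bcl6.

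Irs2 is the member for which the length-shifted Trem2+/+ library mattered most in this comparison. With all libraries its log2 change was -0.22 (SE 0.301, adjusted p = 0.65). In the 16-library fit it fell by 0.57 (SE 0.113, adjusted p = 0.000509), and then the R47H/+ libraries at 28.03 to 33.95 CPM were all below those of Trem2+/+ at 50.8 and 42.7 CPM. Bcl6 then fell by 0.19 (adjusted p = 0.0443). Foxo1, Foxo3, Foxo4, Insr and Fbxo32 were called in neither fit, with log2 changes between 0.01 and 0.24 with all libraries, and those of Foxo3, Foxo4, Insr and Fbxo32 were negative with 16 libraries. Sesn1 was at -0.35 (SE 0.122, adjusted p = 0.0674), with its R47H/+ libraries all below its Trem2+/+ libraries. DESeq2 called Sesn1 lower (adjusted p = 0.031), as did the length offset (0.0386) and fits without Trem2+/+ replicate 1 or 2 (0.0473 and 0.0442). The length offset also called Foxo1 higher, at 0.30 (adjusted p = 0.0257). Of the 11 tested microglial markers 5 were higher and 1 lower in R47H/+ cells, against 8.22% and 6.83% of all genes. The marker sums were 5253 to 5316 against 4766 to 5486 CPM, and the markers' part in the members' values was not tested.

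With tau in both genotypes, Fbxo32 and Sesn1 were lower and Cited2 higher in R47H/+ cells. Fbxo32 measured 6.69, 4.88 and 4.86 CPM against 8.94, 8.70 and 7.90 CPM in Trem2+/+, and fell by 0.64 (SE 0.138, adjusted p = 0.0074), a call that ended in a fit of the 6 libraries alone (adjusted p = 0.0584). Sesn1 measured 66.6, 65.1 and 57.8 CPM against 98.5, 91.5 and 101.5 CPM, and fell by 0.62 (SE 0.123, adjusted p = 0.0042). Cited2 measured 199.1, 222.8 and 204.8 CPM against 169.1, 166.3 and 152.3 CPM, and rose by 0.36 (SE 0.0836, adjusted p = 0.0111). The call of Cited2 ended with no count filter (adjusted p = 0.211), in a fit of the 6 libraries alone (0.085), with the length offset (0.0985) and without Trem2+/+ with tau replicate 3 (0.0548). The members counted 1 higher and 2 lower, against 5.25% and 4.24% of all genes.

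The count with tau was 2 higher and 7 lower in the 16-library fit, against 11.9% and 11.4% of all genes. Insr, Irs2, Foxo1, Foxo3 and Foxo4 were then lower in R47H/+ cells, by 0.38, 0.62, 0.47, 0.34 and 0.32, and Bcl6 higher by 0.37 (adjusted p between 0.000379 and 0.0264). With all libraries these 6 were not called, at adjusted p between 0.0567 and 0.214. Irs2, 1 of the 6, lay at 3.39 to 7.77 CPM in R47H/+ and at 9.37 to 11.4 CPM in Trem2+/+ libraries. Sesn3 was called in neither fit (-0.46 and -0.11). The median of the members was -0.55 with all libraries and -0.36 with 16 libraries, against -0.00 and -0.01 over all genes. The libraries of R47H/+ with tau also enter the comparisons with MK2206 and with R47H/+ cells without tau.

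**Figure D4:**
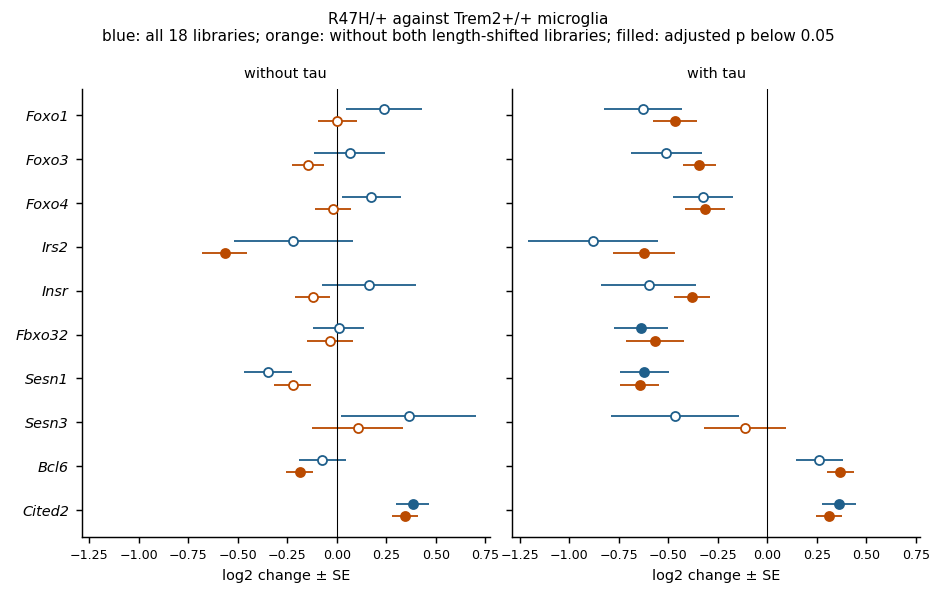
Log2 difference of R47H/+ from Trem2+/+ cells (point) and its SE (line) for the 10 members, without tau (left) and with tau (right), with all 18 libraries in blue and without both length-shifted libraries in orange; filled points have an adjusted p below 0.05. With tau 8 of the 10 members lie below 0 in both fits, and Cited2 lies above 0 in both panels.

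Whether tau acted differently in the 2 genotypes was tested by the interaction. With all libraries 0 members were called by edgeR's quasi-likelihood test, against 2.05% of genes higher and 3.32% lower, with 5 of the 10 at an unadjusted p under 0.05. DESeq2 called 2, Foxo1 at -0.84 and Fbxo32 at -0.63 (adjusted p = 0.0395 and 0.0268). The 16-library fit had 1 higher and 2 lower, against 4.54% and 7.39% of genes. The tau response of Bcl6 was higher in R47H/+ than in Trem2+/+ cells by 0.55 (SE 0.0968, adjusted p = 0.000334), with log2 changes of 0.44 and -0.12. Foxo1 fell more, by 0.47 (SE 0.148, adjusted p = 0.0414), and Sesn1 fell more, by 0.42 (SE 0.135, adjusted p = 0.0442). For Irs2 the interaction was -0.66 (SE 0.443, adjusted p = 0.342) with all libraries and -0.06 (SE 0.192, adjusted p = 0.914) with 16 libraries.

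The interaction of MK2206 with tau in R47H/+ cells was called for 0 members with edgeR in both fits, against 0.181% of genes higher and 0.196% lower with all libraries and 2.76% and 2.19% with 16 libraries. At an unadjusted p under 0.05 there were 2 members with all libraries and 3 with 16 libraries, and DESeq2 called 0. The values nearest the threshold with 16 libraries were Sesn1 at 0.44 (SE 0.130, adjusted p = 0.0555), Foxo1 at 0.43 (SE 0.143, adjusted p = 0.0873) and Foxo3 at 0.32 (SE 0.110, adjusted p = 0.0991). A p above the threshold does not show that the inhibitor acted alike without and with tau.

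The order of the 6 groups differed between members. Cited2 had no overlap between any neighbours, from R47H/+ with MK2206 and tau at 288.0 ± 10.3 CPM (SD, n = 3) through MK2206 at 233.6 ± 5.23, R47H/+ with tau at 208.9 ± 12.4, R47H/+ at 182.0 ± 2.55 and Trem2+/+ with tau at 162.5 ± 9.01 to Trem2+/+ at 139.7 ± 6.56. Fbxo32 was highest with MK2206 at 37.8 ± 2.99 CPM, and R47H/+ at 15.7 ± 1.64 and Trem2+/+ at 15.6 ± 0.923 overlapped. The 3 groups with tau followed without overlap, MK2206 at 10.98 ± 0.589, Trem2+/+ at 8.51 ± 0.548 and R47H/+ at 5.48 ± 1.05. Irs2 was also highest with MK2206 at 54.2 ± 2.60 CPM and lowest in R47H/+ with tau at 5.57 ± 2.19. Sesn1 was highest in Trem2+/+ at 157.0 ± 22.8 CPM and lowest with MK2206 and tau at 55.4 ± 6.25, where it overlapped R47H/+ with tau at 63.2 ± 4.75. R47H/+ with tau was the lowest group for Foxo1, Foxo3, Foxo4, Irs2, Insr and Fbxo32. For all of these but Insr it did not overlap the next group by mean. For Foxo1 and Foxo3 it did overlap Trem2+/+ without tau, whose length-shifted library lay at 7.63 and 59.5 CPM. The highest libraries of R47H/+ with tau were at 8.52 and 64.3 CPM.

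Across the 18 libraries the members fell into groups of like pattern, given here as a description. Pearson's r of log2 CPM was 0.95 between Foxo4 and Irs2, 0.94 between Foxo4 and Fbxo32, 0.91 between Irs2 and Fbxo32 and 0.96 between Foxo1 and Foxo3. Over the 16 libraries without the length-shifted ones these were 0.96, 0.95, 0.90 and 0.91. Sesn1 and Cited2 had the most negative value over 18 libraries, -0.86, and -0.84 over 16. Sesn3 depended on the shifted libraries, with an r to Foxo3 of 0.10 over 18 and -0.83 over 16, and over 16 its values with Irs2 and Foxo4, both -0.88, were the most negative. The libraries share the 6 treatments and 2 of them the length shift, so such values follow differences between groups and libraries. Among 9883 expressed genes, the closest to Irs2 were Aplp2, Dusp3 and Snx27 (r = 0.98, 0.98 and 0.98). The closest to Foxo4 were Lama3 and Aplp2 (0.98 and 0.97), and to Fbxo32 Kif3a, Cbx7 and Zbtb38 (0.97, 0.97 and 0.96). The closest to Foxo1 was Ttc28 (0.97), to Foxo3 Jmy (0.97), to Insr Rere (0.97) and to Sesn1 Kctd12 (0.96). For Sesn3, Bcl6 and Cited2 they were Itga4 (0.92), Tnfaip3 (0.92) and Ints12 (0.91).

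Other genes of the pathway were taken from 6 lists of 134 entries. In the list of FOXO family members and regulators, 14-3-3 proteins and acetylases among them, 17 of 18 were tested. With MK2206 0 were called, without tau (1.19% higher and 1.36% lower of all genes) or with tau (1.64% and 1.4%). The 16-library fit had 2 higher and 4 lower without tau, against 6.82% and 7.1% of all genes. It had 0 and 1 with tau, against 6.28% and 5.73%. With tau in R47H/+ cells 3 rose and 0 fell, against 15.0% and 12.6% of all genes. Among the 3 were the p53 and FOXO ligase Mdm2 at 0.52 and the nuclear exporter Xpo1 at 0.65. The tau response was 2 higher and 1 lower in Trem2+/+ cells (14.4% and 12.1% of all genes). It was 3 higher and 2 lower with MK2206 (14.3% and 11.3%). Between genotypes without tau 0 were higher and 2 lower in R47H/+ cells, against 8.22% and 6.83% of all genes. The 2 were the kinase Sgk1, which like Akt phosphorylates FOXO factors, at -0.50 (adjusted p = 0.00789) and the 14-3-3 gene Ywhah at -0.41 (adjusted p = 0.0319).

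Of the receptors and PI3K genes 16 of 19 were tested. Over all genes 1.19% rose and 1.36% fell with MK2206 without tau, and 1.64% and 1.4% with tau. With MK2206 without tau Igf1r, the receptor for insulin-like growth factor 1, rose from 26.2 to 49.2 CPM (log2 change 0.91, SE 0.229, adjusted p = 0.0455). It was the one gene of the list called there with all libraries. The 16-library fit had 4 higher and 2 lower without tau, against 6.82% and 7.1% of all genes. It had 3 and 1 with tau, against 6.28% and 5.73%. The tau response of the list was 5 higher and 2 lower in Trem2+/+ cells (14.4% and 12.1% of all genes). It was 2 and 2 in R47H/+ cells (15.0% and 12.6%) and 3 and 1 with MK2206 (14.3% and 11.3%). With tau in R47H/+ cells Igf1r fell by 1.45 and with tau and MK2206 by 1.84 (adjusted p = 0.000236 and 1.75e-05). Pik3ip1, an inhibitor of PI3K, was the one gene called with all libraries in the inhibitor comparison with tau, at 0.82 (adjusted p = 0.0179). It rose with tau in all 3 settings, by 1.68, 1.09 and 1.40, and in R47H/+ against Trem2+/+ cells without tau by 0.85 (adjusted p = 0.00645). Between genotypes 1 of the list was higher and 0 lower without tau, against 8.22% and 6.83% of all genes. With tau 0 were called, against 5.25% and 4.24%. In the list of Akt, its phosphatases and kinase partners all 25 were tested and 1 fell with MK2206, Trib3, a pseudokinase that binds Akt, from 15.9 to 6.54 CPM (log2 change -1.29, SE 0.187, adjusted p = 0.00106). Trib3 also fell with MK2206 in the presence of tau, by 0.69 (adjusted p = 0.0465), where the mTOR inhibitor gene Deptor rose by 1.02 (adjusted p = 0.0381). The 16-library fit had 5 higher and 4 lower of these 25 without tau, and 3 and 2 with tau, against the shares above. The tau response was 4 higher and 0 lower in Trem2+/+, 3 and 3 in R47H/+ and 4 and 1 in MK2206 cells. Between genotypes 1 was higher and 0 lower without tau (8.22% and 6.83% of all genes), and 1 and 1 with tau (5.25% and 4.24%). Trib3 was higher in R47H/+ than Trem2+/+ cells by 2.29 without tau and 1.23 with tau.

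Of 43 other FOXO targets 33 were tested. With MK2206 5 rose and 1 fell without tau, against 1.19% and 1.36% of all genes, and 4 rose and 0 fell with tau, against 1.64% and 1.4%. With 16 libraries these were 11 and 5 (6.82% and 7.1% of all genes), and 14 and 0 (6.28% and 5.73%). The growth arrest gene Gadd45a rose from 6.97 to 24.9 CPM (log2 change 1.84, SE 0.258, adjusted p = 0.000855). The interleukin 7 receptor gene Il7r rose by 0.92 and the autophagy gene Gabarapl1 by 0.80 (adjusted p = 0.00174 and 0.00195). With tau Mxi1, an antagonist of Myc, rose by 0.81, the cyclin kinase inhibitor gene Cdkn1b by 0.54 and the mitophagy kinase gene Pink1 by 0.83 (adjusted p = 0.000176, 0.00334 and 0.00794). The list median was 0.09 without tau and 0.19 with tau, against -0.01 and -0.01 over all genes. With tau 8 of the 33 were higher and 9 lower in Trem2+/+ cells (14.4% and 12.1% of all genes), 6 and 11 in R47H/+ cells (15.0% and 12.6%) and 9 and 10 with MK2206 (14.3% and 11.3%), with the lymphocyte egress receptor gene S1pr1 lower by 2.23, 2.72 and 3.05. Between genotypes 6 were higher and 7 lower without tau (8.22% and 6.83% of all genes), with the death ligand gene Tnfsf10 at 3.22 and Cdkn1a at 0.61. With tau 4 were higher and 6 lower (5.25% and 4.24%), with the catalase gene Cat at -0.98.

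Of the sestrins and GATOR genes, which carry amino acid signals to mTORC1, all 14 were tested. With MK2206 0 were called, without tau (1.19% higher and 1.36% lower of all genes) or with tau (1.64% and 1.4%). The 16-library fit had 3 higher and 1 lower without tau, against 6.82% and 7.1% of all genes. It had 1 and 1 with tau, against 6.28% and 5.73%. Sesn2, the third sestrin gene and a known target of the amino acid stress factor ATF4, rose with tau by 1.56, 0.86 and 0.94 in the 3 settings, where Sesn1 fell. Sesn2 was also higher in R47H/+ than Trem2+/+ cells without tau, by 0.95 (adjusted p = 0.00129). Of the partners of BCL6 and CITED2, 12 of 15 were tested and 0 were called with MK2206, without or with tau. The 16-library fit had 2 higher and 0 lower without tau, and 1 and 1 with tau, against the same shares of all genes. The hypoxia factor gene Epas1 fell with tau by 1.68, 2.26 and 2.31 and was lower in R47H/+ cells, by 0.82 without tau (adjusted p = 0.0204) and by 1.40 with tau (adjusted p = 0.00117).

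**Figure D5:**
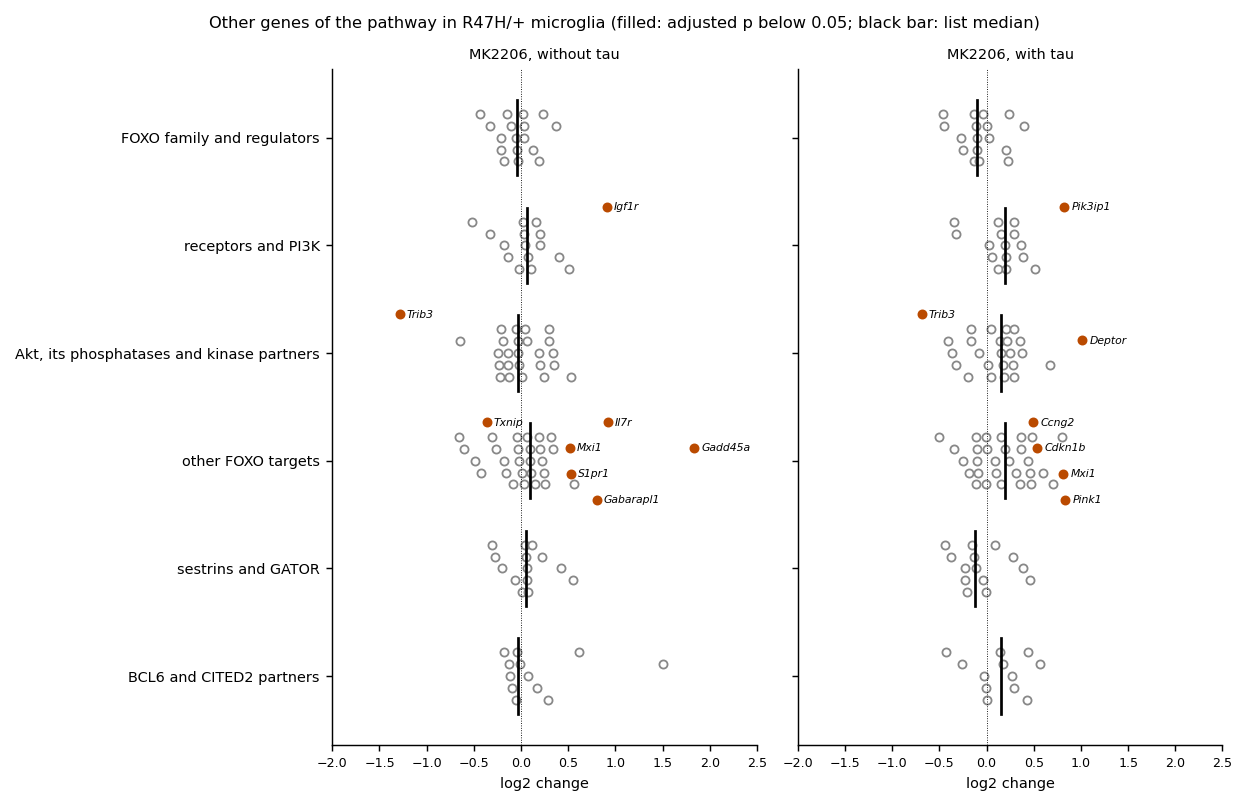
Log2 change with MK2206 in R47H/+ cells for each tested gene of the 6 lists, without tau (left) and with tau (right); filled orange points have an adjusted p below 0.05 with all 18 libraries, and black bars are list medians. Among other FOXO targets the called genes are 5 higher and 1 lower without tau, and 4 higher with tau. In the other lists Igf1r is called higher and Trib3 lower without tau, and Pik3ip1 and Deptor higher and Trib3 lower with tau.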

How the data were processed

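Per the submitters' processing notes, STAR, featureCounts and DESeq2 were used on GRCm38 (mm10), with versions and settings not given in the sources used here. What the authors deposited is a table of raw counts, whole numbers that were not normalized, with coordinates and a gene length (unit: other) for each gene. Whether counting used strand is not given in the sources used here, and annotated genes that overlap a member had at most 5 counts in any library.

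The analysis used R 4.3.3 and edgeR 4.0.16. Genes were kept by filterByExpr (minimum count 10), which left 13267, and TMM scaled the libraries. A single quasi-likelihood fit with 6 group terms covered the 18 libraries, leaving 12 residual degrees of freedom. It gave two-sided F-tests for 7 pairwise comparisons and 2 interactions. P-values were adjusted by Benjamini-Hochberg over every gene tested, and "called" means an adjusted p under 0.05. CPM uses TMM-scaled library sizes, RPKM divides CPM by the authors' gene length, and log2 CPM has a prior count of 2. The 16-library fit tested 13498 genes. The test was run on simulated data first.

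The 10 members, the pathway and marker lists, the alternatives and the length-shifted libraries were chosen with earlier results of these data known. All members are named. From each list up to 3 called genes with the smallest p are named for MK2206, and up to 2 for other pairwise comparisons. Genes most like a member are the 3 with the highest r among those with mean log2 CPM of 1 or more, and fewer are printed for some members. Other settings tried were RLE scaling, no filter on low counts, DESeq2 1.42.0, fitting the compared groups by themselves, the replicate number as a block, a lowess offset for gene length (span 0.3), and leaving out each library or both length-shifted ones.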

Additional observations from a re-analysis of the deposited data

How the results depend on the processing

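Of the members' log2 changes, none that was called with all libraries or under the alternative changed sign, while 19 values under other settings and 22 on leaving out 1 library had the opposite sign, called neither way. Without both length-shifted libraries these were Foxo3, Foxo4, Insr and Fbxo32 between genotypes without tau, Insr and Bcl6 for tau in Trem2+/+ cells, and Sesn3 for MK2206 with tau and the MK2206 by tau interaction. The number of members called between R47H/+ and Trem2+/+ without tau was 1 and became 0 with no count filter and in a fit of the compared groups alone. It became 2 with DESeq2 and 3 without both length-shifted libraries. With the length offset it was also 2, Foxo1 higher and Sesn1 lower, and Cited2 was not among them. With tau it was 3 and became 1 in the groups alone, 7 with the length offset and 9 without both. For tau in Trem2+/+ it was 5, 3 in the groups alone and 8 without both. For tau with MK2206 it was 5, and 9 both in the groups alone and without both length-shifted libraries. For MK2206 without tau it was 3, 6 in the groups alone and 5 without both. For MK2206 with tau it was 2, and 4 with DESeq2, 1 in the groups alone, 6 with the length offset and 7 without both. The genotype by tau interaction had 0, and 2 with DESeq2, 1 with the replicate block, 5 with the length offset and 3 without both. The MK2206 by tau interaction had 0, and 2 with the length offset. For tau in R47H/+ cells 7 were called, and no alternative moved this beyond 1.5 times. Leaving out 1 library gave 1 to 2 and 2 to 3 for genotype without and with tau, 3 to 5, 6 to 7 and 5 to 5 for tau in Trem2+/+, R47H/+ and MK2206 cells, 1 to 2 and 2 to 2 for MK2206 without and with tau, and 0 to 4 and 0 to 0 for the interactions. Apart from the lost calls given above, DESeq2 also called Foxo4 and Irs2 as higher for MK2206 with tau (adjusted p = 0.0102 and 0.0294). It called Foxo1 as lower in R47H/+ than Trem2+/+ cells with tau (0.0286) and Bcl6 as higher with tau in MK2206 cells (just under 0.05). RLE scaling called Foxo4 as higher for MK2206 with tau (0.0462). The cause of these changes was not tested. A fit of the groups alone also rests on fewer libraries than the shared fit.

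Over all genes, counts that moved by more than 1.5 times with all libraries or without both length-shifted ones were as follows. Genotype without tau went from 1997 to 474 in the groups alone, 3521 with the length offset and 3907 without both length-shifted libraries, and with tau from 1260 to 2599 and 3141 under the last 2 settings. Tau in Trem2+/+ went from 3519 to 1311 in the groups alone and 5589 without both, in R47H/+ from 3667 to 5773 without both, and with MK2206 from 3393 to 6225 in the groups alone and 6475 without both. MK2206 without tau went from 338 to 2236 in the groups alone, 554 with DESeq2, 509 with the length offset and 1878 without both. With tau it went from 403 to 220, 708, 1333 and 1620 under the same settings, to 236 with no count filter and to 249 with the replicate block. The genotype by tau interaction went from 713 to 360, 1148, 3131 and 1610 under those 4 settings. The MK2206 by tau interaction went from 50 to 187, 207, 285 and 667, and to 21 with the replicate block. Leaving out 1 library gave 1295 to 2975 and 629 to 1041 for genotype without and with tau, 2640 to 4188, 2686 to 3373 and 2709 to 2913 for tau in Trem2+/+, R47H/+ and MK2206 cells, 138 to 198 and 150 to 245 for MK2206 without and with tau, and 471 to 1537 and 9 to 43 for the interactions.

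The replicate numbers were not treated as pairs. Same-numbered libraries of different groups correlated between -0.63 and 0.49 in their deviations from group means, 4 of 45 pairs over 0.1, and 5 of 18 libraries correlated best with their own number. With the replicate block Fbxo32 was called in the genotype by tau interaction, at -0.65 (adjusted p = 0.0499). The length offset measures a library against its group's other 2, so it also moves libraries that share a group with a shifted one. Sesn3, at 16 to 82 counts per library, is the member that depth limits most.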
